A study of Lathyrus oleraceus with 16 samples.

Results

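Arrested shoot apices of fruiting pea plants were set against active apices taken before the first open flower. The comparison covers 8 of the 16 libraries of the study, chosen by their labels: 4 libraries labelled as arrested and 4 labelled as proliferative. All plants were wild-type pea (Pisum sativum, also Lathyrus oleraceus) of the genotype Cameor. Plants received 16 h light and 8 h darkness in the greenhouse, and the temperature varied from 15 °C at night to 21.5 °C in daytime. Proliferative apices came from young plants with a flower bud in place and no open flower. Arrested apices were collected when plants underwent proliferative arrest. Arrested and Proliferative plants therefore differed in the activity of the meristem, in the presence of fruits and in age, which cannot be told apart in this comparison. The other 8 libraries are used for orientation only: Pruned apices, active, of the same day as Arrested and from plants kept without seeds by continuous pruning, and Reactivated apices, taken 24 h after all fruits and flowers had been removed from arrested plants.

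The shoot apical meristem holds the dividing stem cells from which a flowering pea plant keeps adding nodes and flowers. In many plants that fruit once, the meristems of a plant cease activity together after a number of fruits have set, and in pea this arrest depends on developing seeds. Removing fruits in time lets an arrested meristem resume growth. In Arabidopsis thaliana, the timing of the arrest is known to depend on the transcription factor FRUITFULL and on APETALA2-like factors that it represses, and the hormones cytokinin, auxin and abscisic acid have been tied to it.

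Sequencing depth was 16264221 to 24435174 counts for the Arrested libraries and 17588462 to 24051585 counts for the Proliferative libraries, and these ranges overlapped. Apices were dissected by eye, so leaf and bud tissue may remain, and in bulk tissue fewer cells of a type and less RNA per cell cannot be told apart. None of the 48559 gene IDs matched the 65673 genes of the reference table (assembly CAAS_Psat_ZW6_1.0), so genes are given by ID, without names or functions, and the labelled tissue was not checked against marker genes. A set of 90 genes stood out in Proliferative 3, where it took 0.103% of counts, and in Proliferative 4 with 0.00437%, against at most 6.24e-05% in the other 6 libraries compared. The same set took 0.0981% of counts in Pruned 2, so it was not particular to Proliferative apices. None of these 90 genes passed the filter on low counts.

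Most of the measured transcriptome differed between Arrested and Proliferative. Of 23979 genes tested with edgeR's quasi-likelihood test, 7347 were higher and 8412 lower in Arrested at a Benjamini-Hochberg adjusted p under 0.05, which is 65.7% of the genes tested. The middle of all genes lay close to no change on the scale of TMM factors, with a median log2 fold change of -0.075. Scaling by library totals in place of TMM factors moved that median to 0.126 and turned the majority, with 8835 genes higher and 7011 lower. The same 7347 genes were higher on both scales and the same 7011 were lower on both, and no gene was called in opposite directions. The other 1401 genes called lower with TMM factors were not called lower with library totals. With only the 8 Arrested and Proliferative libraries in the fit, still with TMM factors, 7583 genes were higher and 7358 lower. Which direction held the majority thus depended on the scaling and on the libraries used.

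**Figure D1:**
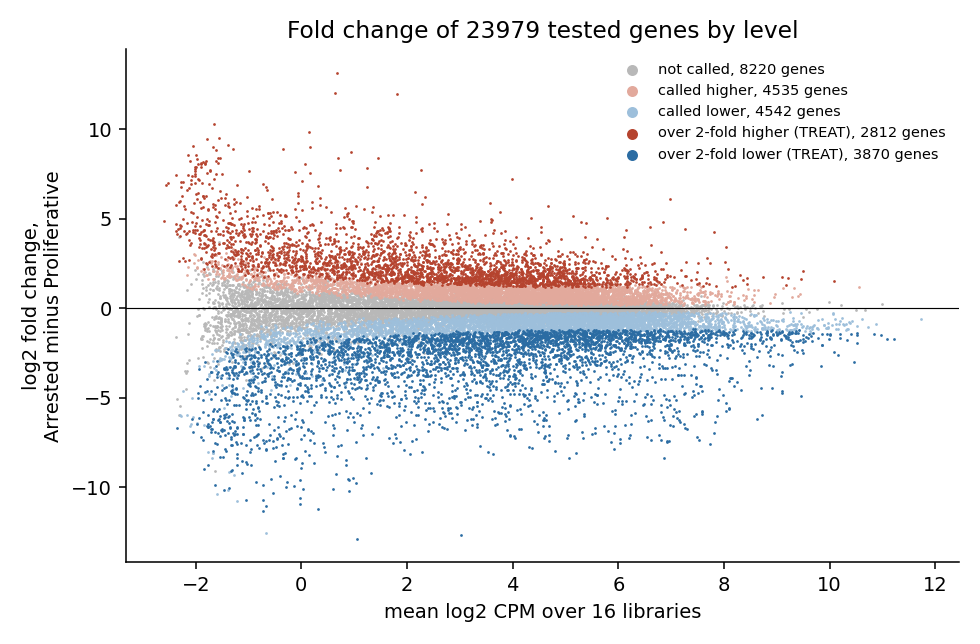
Each point is 1 of 23979 tested genes; the x axis is its mean log2 CPM over 16 libraries and the y axis its log2 fold change, Arrested minus Proliferative, with TMM factors. Dark points mark the 2812 genes over 2-fold higher and the 3870 over 2-fold lower by the TREAT test, pale points other called genes and grey points the 8220 without a call.

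Small changes made up a good part of these calls. Of the 15759 called genes, 5766 had an estimated change of at most 2-fold, or 36.6% of the calls, and 2104 of at most 1.5-fold. The median called change was 1.20 on the log2 scale for genes higher in Arrested and -1.36 for genes lower in Arrested, against a median standard error of 0.223 over all tested genes. Genes were therefore also tested against a change of 2-fold with edgeR's TREAT method. By that test 2812 genes were over 2-fold higher in Arrested (11.7% of those tested) and 3870 were over 2-fold lower (16.1%), 27.9% in all at an adjusted p under 0.05. With library totals the majority turned here too, with 3552 over 2-fold higher and 3221 over 2-fold lower. All 6682 genes were also called in the same direction with library totals by the test against no change.

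Large decreases outnumbered large increases. Among called genes, 1833 rose and 2672 fell by more than 4-fold, and 820 rose while 1517 fell by more than 8-fold. Beyond 32-fold, 174 genes were higher and 478 lower. In these counts the 43 called genes with no count in Proliferative and the 148 with no count in Arrested were set to a bound, with 3 counts over a group in place of 0. With library totals and without such bounds, the changes beyond 8-fold numbered 940 higher and 1362 lower, and those beyond 4-fold 2159 and 2327. The excess of decreases beyond 4-fold and 8-fold was therefore present on both scales, while the excess at 2-fold was not, with 5445 higher and 4617 lower on the scale of library totals. Both scales share a filter on low counts over all 16 libraries, most of them from active apices. Genes low in Arrested could pass it more readily, and its part in this excess was not tested. With the 8 compared libraries alone, TREAT gave 2967 genes over 2-fold higher and 3265 over 2-fold lower.

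For many genes the libraries of both groups did not overlap, which can also hold for small differences without a call. The 4 Arrested libraries all lay above the 4 Proliferative libraries in CPM (counts scaled to equal library totals) for 8251 genes, 34.4% of those tested, and all below them for 6155 genes, 25.7%. Among genes called in the same direction on both scales, 7081 of the 7347 higher genes and 6040 of the 7011 lower genes had no overlap between the groups.

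The change was also measured as a share of each library's counts, which uses library totals and no TMM factors. For any pair of libraries, the distance is the percentage of counts that would have to be assigned to other genes to turn one profile into the other. It ran from 5.77% to 10.1% over the 6 pairs of Arrested libraries and from 6.12% to 14.2% over the 6 pairs of Proliferative libraries. Over the 16 pairs of an Arrested and a Proliferative library it ran from 33.8% to 37.9%. The shortest distance between the groups was more than the longest distance inside either of them. Pruned and Proliferative libraries, both from active meristems, lay 6.11% to 18.1% apart.

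Between the group means, 35.2% of counts moved from genes that lost share in Arrested to genes that gained it. A few very abundant transcripts weighed more on the side of the gains. The 10 largest gains made up 11.9% of all gain, and the 10 largest losses 5.01% of all loss. Conversely 588 genes were needed for 50% of the gain and 381 for 50% of the loss, so beyond the leading genes the losses were spread over fewer genes. These shares rest on means of the same libraries and are descriptions.

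**Figure D2:**
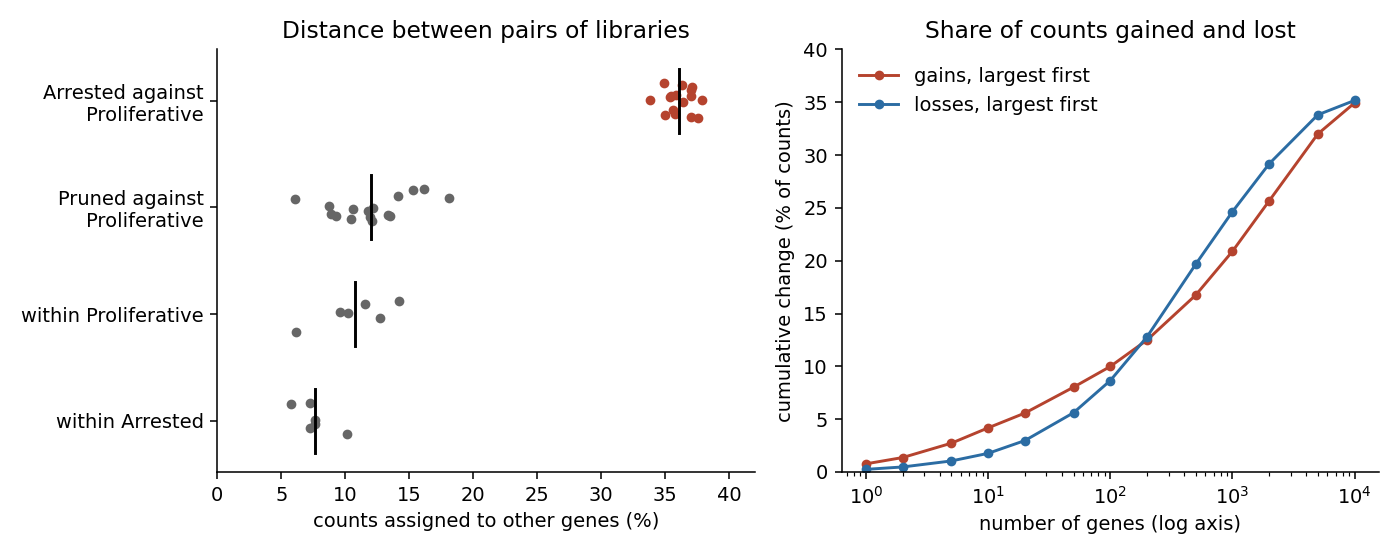
Left, each point is a pair of libraries, the x axis is the percentage of counts assigned to other genes and the bars are means; Arrested against Proliferative pairs sit between 33.8% and 37.9%, above all pairs within a group. Right, cumulative gain and loss in percent of counts (y axis) over genes ordered by the size of their gain or loss (x axis, log scale); gains lead up to about the 100 largest genes and losses lead from the 200 largest on.

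The 100 genes with the largest gains took 2.80% of counts ± 0.443 in Proliferative and 12.8% ± 0.924 in Arrested (SD, n = 4). In libraries that had no part in their choice, they took 2.19% ± 0.160 in Pruned and 1.37% ± 0.0793 in Reactivated (SD, n = 4). The Pruned libraries, from 1.95% to 2.29%, lay at the lower edge of the Proliferative range of 2.22% to 3.22%, and the Reactivated libraries, from 1.27% to 1.46%, lay below both. Of these 100 genes, 97 were called higher in Arrested by edgeR at an adjusted p under 0.05, where 30.6% of all tested genes were, but a large gain in share is what chose them.

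The 100 genes with the largest losses took 11.7% of counts ± 1.36 in Proliferative and 3.03% ± 0.186 in Arrested (SD, n = 4). Pruned libraries held 11.6% ± 1.27 and Reactivated libraries 11.3% ± 0.870 in the same genes (SD, n = 4). Both of these groups overlapped the Proliferative range of 10.7% to 13.7%, and no Arrested library exceeded 3.27%. The place of Reactivated depended on how many genes were taken: for the 10 largest losses it ran from 1.47% to 1.78%, below the Proliferative range of 2.01% to 2.56%, and for the 1000 largest from 44.1% to 49.9%, above the Proliferative range of 36.8% to 41.4%. All 100 were called lower in Arrested by edgeR, where 35.1% of all tested genes were, again among genes picked for their loss.

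The order of the most abundant transcripts changed, and Arrested shared fewer of them with Proliferative than Pruned did. Of the 10 genes with the highest mean CPM in Arrested, 2 were among the 10 highest in Proliferative, whereas Pruned and Proliferative shared 8. Of the 100 highest, Arrested and Proliferative shared 40 and Pruned and Proliferative 84. Of the 1000 highest, these numbers were 512 and 910. The 10 leading genes of Arrested held places 6 to 2738 in the Proliferative order, with a median of 391.5. The 10 leading genes of Proliferative held places 3 to 2466 in the Arrested order, with a median of 51.5. Places compare counts and not molecules, since the gene lengths were not used here.

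By the rule for single genes, the 2 with the largest gain and the 2 with the largest loss in mean CPM are described in every library. They were picked among genes whose Arrested and Proliferative libraries do not overlap, so that separation is a description. Psat3g011320 was the most abundant gene of Arrested apices, with 7319, 7969, 9868 and 7152 CPM in Arrested 1 to 4. In Proliferative 1 to 4 it stood at 304, 154, 462 and 564 CPM. All Arrested libraries were far above all Proliferative libraries, with means of 8077 CPM ± 1245 and 371 ± 180.2 (SD, n = 4). The log2 fold change was 4.25 (SE 0.30, edgeR adjusted p = 4.97e-09).

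In the other active apices Psat3g011320 was lower still. Pruned libraries held 63.5 CPM ± 5.37 and Reactivated libraries 14.7 ± 0.519 (SD, n = 4), and neither group overlapped Proliferative. Pruned was lower than Proliferative, at a log2 fold change of -2.54 with an SE of 0.28 (adjusted p = 0.000101 in edgeR). Arrested against Pruned therefore gave a wider gap than Arrested against Proliferative, with a log2 fold change of 6.78 with an SE of 0.34 (adjusted p = 9.38e-11 in edgeR); these comparisons share libraries. Its place in the order of mean CPM was 391 in Proliferative, 1 in Arrested, 3518 in Pruned and 9309 in Reactivated.

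Psat2g028200 stood at 4208, 6159, 5865 and 7974 CPM in Arrested 1 to 4 and was the second most abundant gene there. In Proliferative 1 to 4 it stood at 99.6, 13.4, 117 and 77.1 CPM, with Proliferative 2 below the other libraries of its group. The means were 6051 CPM ± 1543 in Arrested and 76.8 ± 45.4 in Proliferative (SD, n = 4). The log2 fold change was 6.11 (SE 0.63, edgeR adjusted p = 3.80e-07).

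Pruned libraries held 12.6 CPM ± 5.66 of Psat2g028200 and Reactivated libraries 68.5 ± 32.1 (SD, n = 4). Pruned was lower than Proliferative, at a log2 fold change of -2.59 with an SE of 0.55 (adjusted p = 0.0134 in edgeR), although Proliferative 2 lay within the Pruned range of 7.39 to 20.1 CPM. Reactivated libraries, from 35.2 to 99.1 CPM, fell within the range of the Proliferative libraries. The log2 fold change between Arrested and Pruned was 8.69 (SE 0.71, edgeR adjusted p = 2.12e-08), with the Arrested libraries shared between both comparisons.

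Psat0s1212g0160 showed the largest loss in mean CPM. It stood at 4278, 2931, 2303 and 2052 CPM in Proliferative 1 to 4 and at 304, 286, 305 and 770.5 CPM in Arrested 1 to 4. Arrested 4 stood above the other Arrested libraries and still below every Proliferative library. The means were 2891 CPM ± 996 and 416 ± 236 (SD, n = 4), and the log2 fold change was -2.99 (SE 0.39, edgeR adjusted p = 5.56e-06).

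This gene held place 3 by mean CPM in Proliferative, 215 in Arrested, 1 in Pruned and 194 in Reactivated. Pruned libraries held 5180.1 CPM ± 794 (SD, n = 4), and their difference from Proliferative did not pass the test, with a log2 fold change of 0.84 with an SE of 0.37 (adjusted p = 0.286 in edgeR). Reactivated libraries held 797 CPM ± 356 (SD, n = 4), below every Proliferative library and overlapping with Arrested through Arrested 4. Arrested was nonetheless lower than Reactivated, at a log2 fold change of -1.50 with an SE of 0.37 (adjusted p = 0.00179 in edgeR).

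Psat1g060840 stood at 1775, 3085, 2390.1 and 2225 CPM in Proliferative 1 to 4 and at 99.96, 90.9, 66.3 and 103.7 CPM in Arrested 1 to 4. The groups lay far apart, with means of 2369 CPM ± 544 and 90.2 ± 16.8 (SD, n = 4). The log2 fold change was -4.91 (SE 0.26, edgeR adjusted p = 2.19e-10). Pruned libraries held 2171 CPM ± 503, close to Proliferative, and the difference between these active groups did not pass the test, with a log2 fold change of -0.12 with an SE of 0.22 (adjusted p = 0.892 in edgeR). Reactivated libraries held 592 CPM ± 200.1 (SD, n = 4), between Arrested and Proliferative without overlap with either. The counts ignore strand, so reads of an overlapping or antisense gene may be included for each of these 4 genes.

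**Figure D3:**
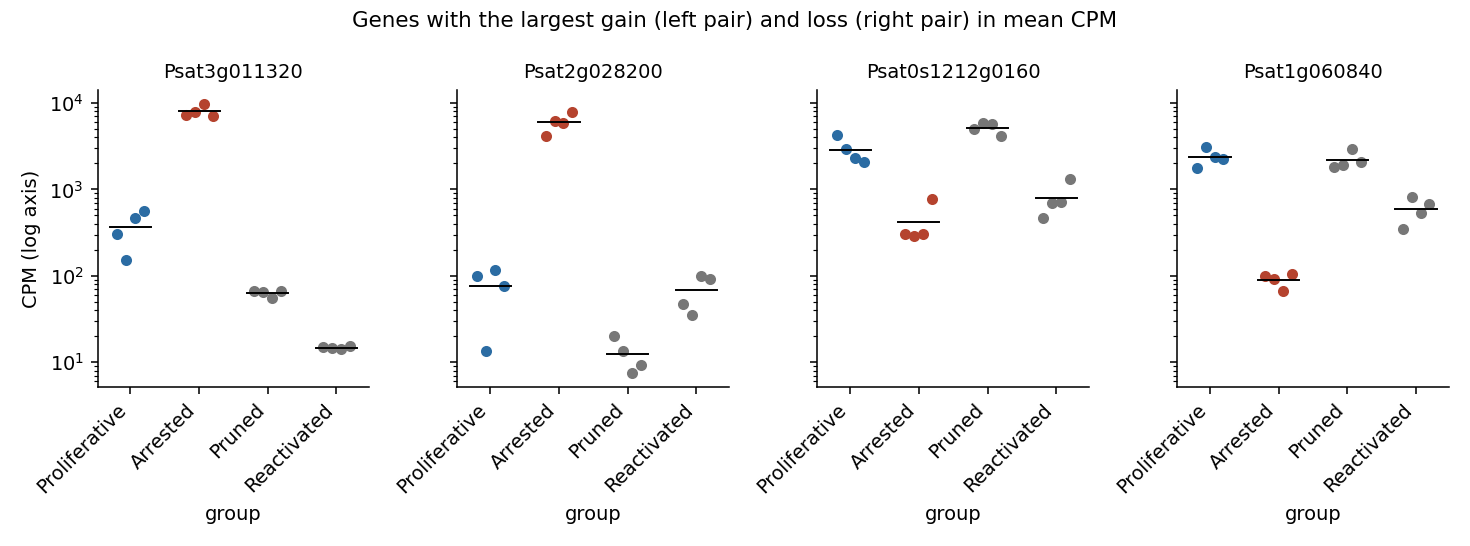
CPM on a log axis of the genes with the largest gain (Psat3g011320 and Psat2g028200) and the largest loss (Psat0s1212g0160 and Psat1g060840) in Arrested. Each point is a library, bars are means of 4 libraries, and the absence of overlap between Arrested and Proliferative was a condition for choosing these genes.

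Complete switches between silence and expression were few beside the number of changed genes. A gene was taken as on where each library of a group held at least 1 CPM, and as silent where the whole group held at most 3 counts. By this rule 46 genes were on in Arrested and silent in Proliferative, and 40 were on in Proliferative and silent in Arrested. Of these, 13 and 19 had no count at all in the silent group. Without the demand for 1 CPM in each library, 43 called genes had no count in Proliferative and 148 had none in Arrested. The size and balance of the switch sets therefore depend on the rule. The rule itself demands a difference, so no test is given for these sets.

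The genes on in Arrested alone of the pair had a median mean level of 3.88 CPM in Arrested, and 5 of 46 reached 10 CPM. Together they took from 0.0339% to 0.0679% of counts in the Arrested libraries, a sum to which the highest gene, at a mean of 203 CPM, contributed the most. In the other active groups, 28 of the 46 were silent in Pruned and 0 were on in all Pruned libraries, while Reactivated had 15 of them silent and 5 on in each library. Summed counts of the 46 genes came to 0.00146% ± 0.000971 of each library in Pruned and 0.00979% ± 0.00234 in Reactivated (SD, n = 4), so the Reactivated libraries all lay between Pruned and Arrested.

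The genes on in Proliferative and silent in Arrested had a median mean level of 3.18 CPM in Proliferative, the highest reached 41.7 CPM, and 3 of 40 reached 10 CPM. None of the 40 was silent in Pruned, and 26 were on in all Pruned libraries. In Reactivated, 2 were silent and 14 were on in all libraries. Their summed share of counts was 0.0214% ± 0.00421 in Proliferative, 0.0283% ± 0.0143 in Pruned and 0.00889% ± 0.00255 in Reactivated (SD, n = 4). Fewer libraries make both criteria easier to meet, so leaving out a library could only keep or raise the number of genes in each set. Without Proliferative 3 the genes on in Arrested numbered 90, and without Arrested 4 they numbered 71. Without Proliferative 1 the genes on in Proliferative numbered 83, and without Arrested 1 they numbered 66.

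In Pruned and Reactivated, the genes over 2-fold apart lay nearer to Proliferative than to Arrested in their median level. The 2812 genes over 2-fold higher in Arrested were at a median log2 CPM of 4.38 ± 0.10 in Arrested, 1.95 ± 0.22 in Proliferative, 1.75 ± 0.12 in Pruned and 1.73 ± 0.10 in Reactivated (SD over 4 libraries). The 3870 genes over 2-fold lower were at 1.57 ± 0.12 in Arrested, 4.33 ± 0.13 in Proliferative, 4.39 ± 0.08 in Pruned and 4.11 ± 0.12 in Reactivated. Arrested and Proliferative values are set by the choice of these genes; Pruned and Reactivated libraries had no part in the contrast, though they share the fit. Over all tested genes the median of the groups lay between 3.46 in Reactivated and 3.65 in Proliferative and Pruned.

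**Figure D4:**
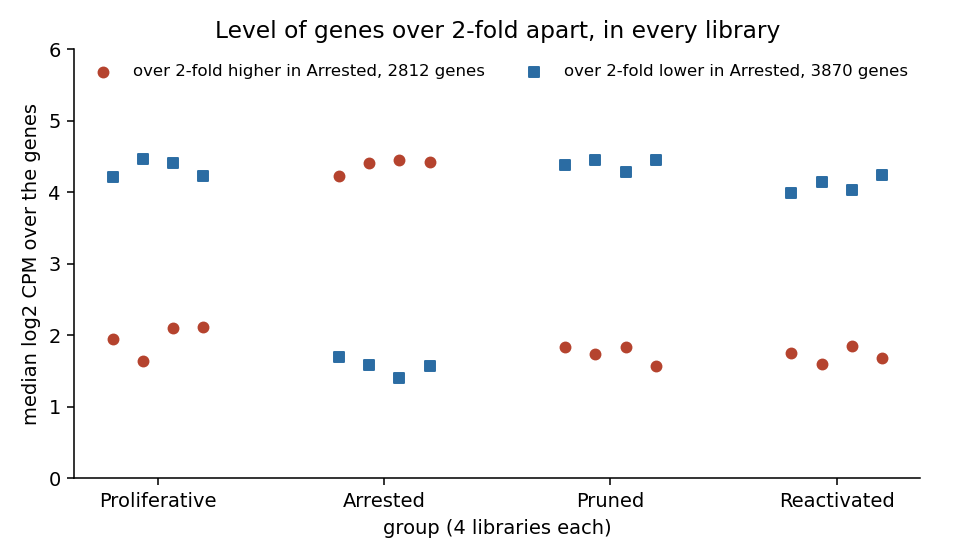
Median log2 CPM (y axis) over the 2812 genes over 2-fold higher (circles) and the 3870 genes over 2-fold lower (squares) in Arrested than in Proliferative, with a point for each of the 16 libraries. In Pruned and Reactivated the circles lie between 1.58 and 1.85 and the squares between 3.99 and 4.45, the same order as in Proliferative.

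As a share of counts, the genes over 2-fold higher went from 4.11% ± 0.502 in Proliferative to 23.0% ± 1.36 in Arrested, and took 3.47% ± 0.282 in Pruned and 2.36% ± 0.0780 in Reactivated (SD, n = 4). The genes over 2-fold lower went from 32.7% ± 0.867 to 8.07% ± 0.412, and took 33.8% ± 1.94 in Pruned and 34.6% ± 1.46 in Reactivated. Within Proliferative the higher genes were least abundant in replicate 2, with 3.37% of counts against 4.24% to 4.42% in the other 3 libraries. Within Arrested they were least abundant in replicate 1, with 20.9% against 23.4% to 23.8%.

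Calls were more frequent among abundant genes, where the error was smaller. Tested genes were divided into 10 equal classes by mean log2 CPM over all 16 libraries. In the lowest class 53.9% of genes were called, with a median SE of 0.765, and in the highest class 78.6%, with a median SE of 0.138. The size of called changes went the other way, from a median of 3.39 on the log2 scale in the lowest class to 1.03 in the highest. Where the SE is larger, only larger estimates can be called. This trend therefore does not show that genes of low level changed more. In the highest class 59.7% of genes were lower and 18.9% higher in Arrested, and in the lowest class 25.9% and 28.0%.

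The split of direction by level depended on which libraries set the level. Since 12 of the 16 libraries came from active apices, a mean over all of them ranks genes that are low in Arrested as more abundant. With the level taken over the 8 Arrested and Proliferative libraries, an alternative chosen after seeing the data, 45.8% of the highest class were lower and 30.7% higher. In the lowest class the values became 36.2% and 18.6%. With library totals as well, 49.2% of the calls in the highest class were higher, so no direction is given for abundant genes. The share of genes called hardly moved, from 54.7% in the lowest class to 76.6% in the highest.

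**Figure D5:**
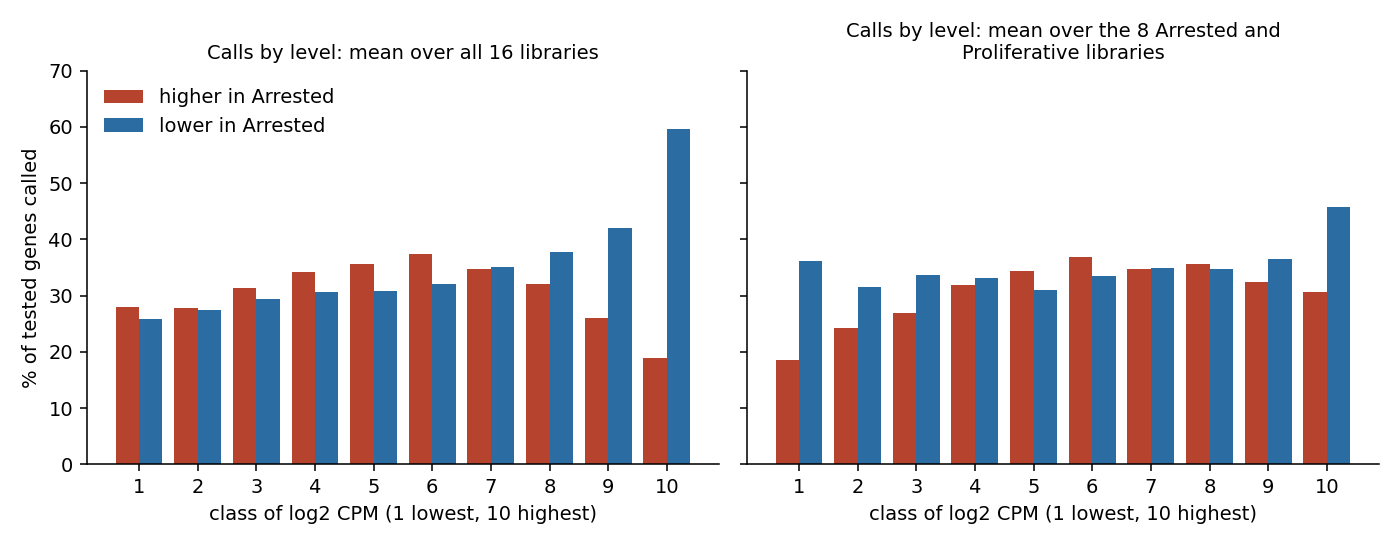
Percent of tested genes called higher (red) or lower (blue) in Arrested with TMM factors, by class of mean log2 CPM (x axis, 1 lowest to 10 highest), with no error bars since each bar is a count. With classes from all 16 libraries 59.7% of the highest class were lower, and with classes from the 8 compared libraries 45.8%.

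Changed genes were spread over all ID series. The gene IDs carry a series, from Psat1g to Psat7g, or Psat0s for IDs numbered within many small units, and a running number. The share of tested genes called ran from 64.0% among Psat0s IDs to 67.2% among Psat7g IDs, close to the 65.7% over all genes. The share of genes over 2-fold apart ran from 26.3% in Psat4g to 29.4% in Psat5g. Of the calls, 43.8% were higher in Psat7g and 48.3% in Psat2g and Psat0s, with the other series between them.

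Genes next to each other in ID number changed in the same direction slightly more often than their totals give. Among 9775 pairs of tested neighbours that were both called, 53.8% had the same direction (95% Wilson interval 52.8% to 54.8%), where the totals of both directions give 50.4%. Among 1906 neighbouring pairs that were both over 2-fold apart, 60.7% had the same direction (58.5% to 62.9%), where the totals give 51.4%. Further on, the genes over 2-fold apart gave 53.9%, 53.7%, 50.8% and 53.3% at 2, 3, 4 and 5 places and 53.5% at 10, where the totals give between 50.96% and 51.4%. The called genes gave 51.8%, 52.02%, 50.1% and 49.8% at 2 to 5 places. The intervals cover counting error only and treat pairs as independent, which genes are not. Reads shared between overlapping neighbours or near-identical adjacent copies were not separated, and their part in this share was not tested. The longest runs of adjacent tested genes over 2-fold apart held 6 higher and 7 lower genes.

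Proliferative libraries differed more from each other than Arrested libraries did. The biological coefficient of variation, edgeR's estimate of the relative spread between replicates beyond counting error, was 0.339 in Proliferative and 0.205 in Arrested. Leaving out any library of a group kept these between 0.306 and 0.362 and between 0.182 and 0.224. Among tested genes with a mean of 1 CPM or more, the highest library exceeded the lowest by over 4-fold for 1592 of 21341 genes in Proliferative (7.46%) and for 619 of 21184 in Arrested (2.92%). Of the 1592 genes, 991 were lowest in Proliferative 1 and 641 were highest in Proliferative 3. Of the same 1592 genes 54.0% were called between Arrested and Proliferative, and of the 619 genes 50.2%, below the 65.7% of all tested genes. The 65.7% also takes in genes with a mean under 1 CPM, so it is not a matched reference. The spread that chose these genes also enters that test, so a lower share is favoured by the choice.

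Correlations of log2 CPM across genes, which are not independent replicates, gave the same order of spread. Mean r was 0.972 between Arrested libraries, 0.950 between Proliferative libraries and 0.766 between the groups, and the closest pair across the groups reached 0.804.

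The number of genes detected and the evenness of the profiles were compared library by library. Arrested libraries held 25925 ± 435 genes with a count and Proliferative libraries 26831 ± 648 (SD, n = 4), and the difference did not pass a two-sided exact permutation test (p = 0.0571). With every library thinned to 16264221 counts the means were 25814 and 26603 (exact permutation p = 0.0571). The 10 most abundant genes of a library took 4.29% to 5.32% of counts in Arrested and 2.44% to 3.12% in Proliferative, without overlap. That difference of 2.16 percentage points had the smallest p that 4 against 4 libraries allow (exact permutation p = 0.0286, 0.0857 after Benjamini-Hochberg adjustment over 6 such measures).

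The effective number of genes, the exponential of the Shannon entropy of the count shares, was 7494 ± 377 in Arrested against 7019 ± 638 in Proliferative (SD over 4 libraries; exact permutation p = 0.286). In Arrested, 1618 to 1859 genes made up 50% of a library's counts, and in Proliferative 1154 to 1567 genes, a measure added after seeing the data (exact permutation p = 0.0286, adjusted 0.0857). The 100 most abundant genes took 14.7% ± 0.842 and 13.8% ± 1.44 of counts (SD, n = 4; exact permutation p = 0.314).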

How the data were processed

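Raw counts per gene were deposited by the authors as a single table with a column for each of the 16 libraries; per the labels, column-purified, DNase-treated RNA gave strand-specific polyadenylated libraries. The tools named by the submitters' processing notes are HTSeq, HISAT2, cutadapt and DESeq2; genome build and annotation are not given in the sources used here. The table's name states counting without regard to strand. The 4 libraries of a group are biological replicates per the labels.

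Analysis used edgeR 4.0.16 under R 4.3.3: filterByExpr by group (23979 genes, with 99.69% or more of each library's reads), TMM factors, and glmQLFit on all 16 libraries with group as the term. The contrast was Arrested minus Proliferative, with glmQLFTest and glmTreat at 2-fold and Benjamini-Hochberg adjusted p under 0.05. SE is the size of the log2 fold change divided by the square root of F. CPM uses library totals; log2 CPM uses TMM factors and a prior count of 2. The tests were checked on simulated counts with few changed genes, equally often higher and lower. That check could not assess the scaling where most genes differ. Single values per library had two-sided exact permutation tests (scipy 1.17.1), whose smallest p is 0.0286. No 2 replicates agreed within sampling noise.

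The 4 named genes were those with the largest gain or loss in mean CPM among genes called on both scales without overlap between groups. Members, lists and rules were chosen with earlier results of these data known. Alternatives were other scalings and filters, DESeq2 1.42.0, the 8 libraries alone, a replicate block and leaving out libraries.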

Additional observations from a re-analysis of the deposited data

Results flagged for a closer look

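Of 22 groups of 4 libraries examined, from 3 library measures in Arrested and Proliferative and 4 named genes in all groups, 1 held a library far from the others; chance gives about 1 in 20. Psat0s1212g0160 stood at 770.5 CPM in Arrested 4 and between 286 and 305 CPM in the other Arrested libraries, so that the gap to the nearest library was 0.960 of the whole range. Without any 1 of the 8 libraries its log2 fold change against Proliferative stayed between -3.51 and -2.71, with edgeR adjusted p between 7.01e-07 and 5.39e-05.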

How the results depend on the processing

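Counts of called genes stayed within 1.5 times of their values under all alternatives run, from 6784 to 8835 higher, 7011 to 8862 lower, 2543 to 3552 over 2-fold higher and 3221 to 3978 over 2-fold lower. Which direction held more calls turned with library totals and, for the test against no change, with the 8 libraries alone. The 4 named genes kept direction and call in 17 of 17 alternatives each. A call with library totals and the lack of overlap were conditions for choosing them, which favours that outcome. With the replicate block 7197 genes were higher and 8098 lower; same-numbered libraries did not deviate together (r from -0.168 to 0.020), so the numbers were not taken as pairs. DESeq2 called 7866 and 8270. Genes on in Arrested and silent in Proliferative numbered 6 at 5 CPM, 13 with silence at 0 counts, 138 without both Proliferative 3 and 4, and 48 to 90 without single libraries, where fewer libraries make both criteria easier to meet. Genes on in Proliferative and silent in Arrested numbered 5 at 5 CPM, 19 with silence at 0 counts and 40 to 83 without single libraries. The difference in the share of the 10 leading genes was 2.004 to 2.35 percentage points without single libraries, a design of 3 against 4 whose smallest p is 0.0571, and 0.921 for the 100 leading genes (exact permutation p = 0.314). Same-direction neighbours made up 51.8%, 52.02%, 50.1% and 49.8% at 2, 3, 4 and 5 places on; the cause was not tested. With classes from 8 libraries, 36.2% and 18.6% of the lowest class were lower and higher, and 45.8% and 30.7% of the highest. The spread was 0.182 to 0.224 in Arrested and 0.306 to 0.362 in Proliferative without single libraries. Depth limits switches: 3 counts over a group cannot be told from silence.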
